A study of Homo sapiens with 8 samples.

Results

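Cytosolic ribosomal protein genes encode the protein parts of the ribosome that works in the cytoplasm. They were taken from the GENCODE annotation of hg38 as protein-coding genes on the autosomes and X whose symbol is RPL or RPS with a number and an optional A, X or L, together with RPLP0, RPLP1, RPLP2 and RPSA. Ribosomal S6 kinase genes were left out. This gave 81 of 19970 protein-coding genes, 49 for the large and 32 for the small subunit. A gene was counted in a peak list when the summit of a peak lay within 1 kb of any of its annotated transcript starts, and where several did, the one with the highest fold enrichment was taken.

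The lists come from chromatin immunoprecipitation followed by sequencing (ChIP-seq) in U-2 OS, a human osteosarcoma line. All cells were fixed for 6 min with 1% formaldehyde. Cells carrying a V5-Halo knock-in at endogenous SP1 were used with 2 rabbit antibodies against Sp1, MA5-32497 (antibody 1) and PA5-29165 (antibody 2), and with normal rabbit IgG, 1 library each. Clone C32, a single clone with FLAG and Halo tags knocked into endogenous CTCF, gave 2 CTCF replicates with antibody ab128873, although GEO's design text calls these cells wild type. Per the labels, the titles of the Sp1 and IgG libraries call their cells parental while the genotype field gives the tagged SP1 allele. Sp1 and CTCF were thus measured in different lines, so target and experiment cannot be told apart. With 1 library per Sp1 antibody and 2 for CTCF, no p-value was computed. Shares carry 95% Wilson intervals, which cover counting error only, since genes are not replicates of a condition.

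Ribosomal protein mRNAs are among the most abundant in a growing cell, and their products are needed in equal numbers. Their promoters typically start transcription at a C inside a run of pyrimidines, the TCT initiator, and the resulting 5′ terminal oligopyrimidine tract places translation of these mRNAs under control of the mTOR pathway. Sp1 is a zinc finger activator that binds GC boxes, and CTCF is a zinc finger protein with a long directional recognition sequence that is known for insulating domains and anchoring chromatin loops.

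The sequences below were read from hg38 and are written on the strand of the gene. Members shown are among those found in the RefSeq promoter table for GRCh38.p14, which held 64 of the 81. Each run extends at most 60 bases to either side of the word and stops earlier where an annotated exon begins. Runs of 30 bases are used where the word lies in or close to an exon of any transcript. The first set is shown because these genes were among the 6 with the highest fold enrichment with antibody 1. Capitals mark every copy of the word TCGCGAGA on either strand. Its reverse complement is TCTCGCGA, so TCTCGCGAGA holds a match on both strands.
RPS19 (chr19:41860148-41860254, plus strand): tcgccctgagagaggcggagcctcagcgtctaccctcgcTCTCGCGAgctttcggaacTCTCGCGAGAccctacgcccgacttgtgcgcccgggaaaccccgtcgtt
RPL12 (chr9:127451407-127451488, minus strand): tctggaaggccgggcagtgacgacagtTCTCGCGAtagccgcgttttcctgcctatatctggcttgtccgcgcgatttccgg
RPL10A (chr6:35468296-35468400, plus strand): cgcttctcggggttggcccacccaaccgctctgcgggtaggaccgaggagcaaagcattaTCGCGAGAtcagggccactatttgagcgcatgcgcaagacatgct
RPL4 (chr15:66505075-66505104, minus strand): gatacctcgacTCGCGAGAgttggcctcgc
RPS28 (chr19:8321425-8321454, plus strand): gcggcgtggtaTCGCGAGAcgggagtgggc

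The second set is from the genes with the highest fold enrichment with antibody 2. Capitals mark every copy of CCGGAA, the core of sites bound by ETS factors, or of its reverse complement.
RPS7 (chr2:3575101-3575186, plus strand): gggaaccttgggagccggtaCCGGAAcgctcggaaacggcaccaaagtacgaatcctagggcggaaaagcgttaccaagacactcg
RPS18 (chr6:33271869-33271898, plus strand): cacaaactagccCCGGAAccttcgctgttc
RPL29 (chr3:51995896-51996002, minus strand): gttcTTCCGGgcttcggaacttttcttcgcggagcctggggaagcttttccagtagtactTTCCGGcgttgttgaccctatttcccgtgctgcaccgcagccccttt

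The third set is from genes with CTCF summits in both replicates. Capitals mark the CTCF core of 12 bases found near the summit of replicate 1, with at most 1 mismatch.
RPL26 (chr17:8383258-8383389, minus strand): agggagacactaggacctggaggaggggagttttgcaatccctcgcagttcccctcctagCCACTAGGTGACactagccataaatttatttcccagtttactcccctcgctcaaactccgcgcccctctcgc
RPL38 (chr17:74203492-74203581, plus strand): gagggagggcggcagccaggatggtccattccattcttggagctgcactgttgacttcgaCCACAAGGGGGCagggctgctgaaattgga
RPLP0 (chr12:120201330-120201359, minus strand): agctccagcCCAGCAGGTGGCagcagctca
RPS4X (chrX:72277269-72277400, minus strand): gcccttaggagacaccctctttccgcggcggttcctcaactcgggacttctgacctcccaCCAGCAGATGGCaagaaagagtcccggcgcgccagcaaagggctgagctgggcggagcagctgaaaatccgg

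The fourth set shows the annotated transcription start. Capitals mark the TCT initiator nearest that start, searched as CCTTT or TCTTT on the strand of the gene. Its second letter is the C of the initiator, which lies at or close to the annotated start and need not be that base.
RPL13A (chr19:49487595-49487624, plus strand): acaaaacctcctCCTTTtccaagcggctgc
RPLP2 (chr11:809955-809984, plus strand): cgtcggcgccttCCTTTtcctccctgtcgc
RPS6 (chr9:19380219-19380248, minus strand): cggaagttggcccTCTTTtccgtggcgcct
RPS27A (chr2:55232675-55232704, plus strand): cgcggcgttcttCCTTTtcgatccgccatc

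Sp1 summits were found at the promoters of most cytosolic ribosomal protein genes. With antibody 1, 69 of the 81 members had a summit (85.2%, 95% Wilson interval 75.9 to 91.3%), against 37.5% of all protein-coding genes. With antibody 2 there were 54 (66.7%, 55.9 to 76.0%), against 24.2%. Either antibody reached 73 members (90.1%, background 40.4%), and both reached 50 (61.7%, background 21.2%). These lists hold peaks of the authors' caller down to a −log10 q of 1.30 with antibody 1 and 1.32 with antibody 2. Read depth is unknown from them, so a missing summit means only that no peak was listed.

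CTCF summits were less frequent at the same promoters and stood closer to the background. Replicate 1 had a summit at 37 members (45.7%, 35.3 to 56.5%), against 32.5% of all genes, and replicate 2 at 32 (39.5%, 29.6 to 50.4%), against 24.9%. Both replicates shared 30 members (37.0%, 27.3 to 47.9%, background 24.3%). All 4 lists had a summit at 21 members (25.9%, 17.6 to 36.4%), against 6.71% of all genes. The IgG list held 106 peaks and had a summit at 0 of the 81 members, with an upper Wilson bound of 4.53%, and at 5 genes in all. Only 6 members had no summit in any list, 7.41% against 43.8% of all genes.

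Members have more annotated starts than other genes, a median of 8 against 5, which gives a summit more chances to lie near one. When only the canonical start of each gene was used, the members' shares were 85.2%, 65.4%, 40.7% and 34.6% with antibody 1, antibody 2, CTCF replicate 1 and replicate 2. The shares of all genes were then 34.1%, 21.8%, 22.6% and 16.2%. The distance of 1 kb decided little for Sp1. With antibody 1 the farthest member inside was RPL7, with its summit 399 bp from a start, so none lay between that distance and 1 kb. For CTCF replicate 1 the limit ran between RPL9 at 911 bp and RPL7A at 1335 bp.

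**Figure D1:**
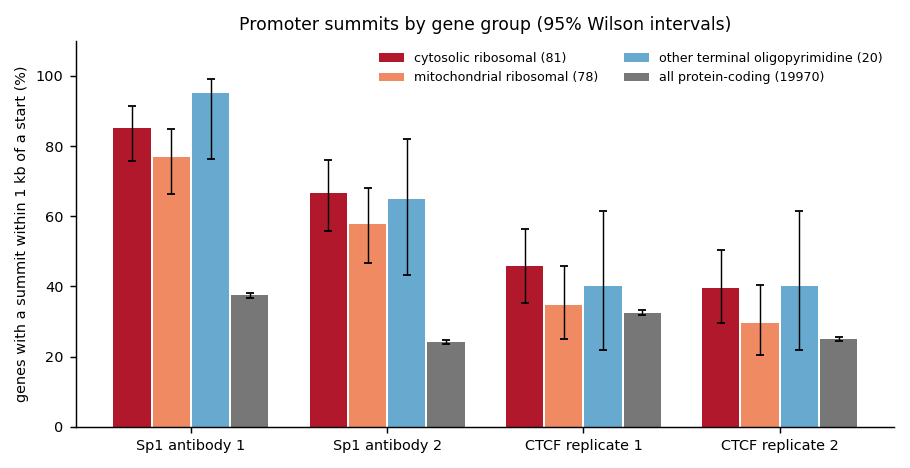
Share of genes (%) with a summit within 1 kb of an annotated start in each peak list, for cytosolic ribosomal protein genes, mitochondrial ribosomal protein genes, other terminal oligopyrimidine genes and all protein-coding genes, with 95% Wilson intervals as bars. Cytosolic ribosomal protein genes stand at 85.2% with antibody 1 and 66.7% with antibody 2, above the 37.5% and 24.2% of all genes, and by smaller margins above them for CTCF.

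Other gene groups were set beside the members. Of 78 mitochondrial ribosomal protein genes, which encode the ribosome of the mitochondrion and carry no terminal oligopyrimidine tract as a class, 60 had an antibody 1 summit (76.9%, 66.4 to 84.9%) and 45 an antibody 2 summit (57.7%, 46.6 to 68.0%). These intervals overlap those of the cytosolic genes. Both CTCF replicates had a summit at 21 of them (26.9%, 18.3 to 37.7%). Among 20 other genes whose mRNAs carry a terminal oligopyrimidine tract, chiefly translation factors, antibody 1 had a summit at 19 (95%) and antibody 2 at 13 (65.0%). The share of the cytosolic genes lay between those of these groups with antibody 1 and slightly above both with antibody 2, and all these intervals overlap.

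A high share did not go with high enrichment. Fold enrichment is the authors' ratio of signal at the summit to control. With antibody 1 its median was 8.89 over the 69 members with a summit, with a 95% interval of the median from 7.78 to 11.4 by order statistics, and 8.85 over all 7481 genes with a summit. With antibody 2 the medians were 6.91 (6.22 to 8.30) and 7.02. In the antibody 1 list 8 members (11.6%) were in the strongest 10% of genes, and with antibody 2 there were 5 (9.26%), about the share of any gene.

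For CTCF the members' share stood less far above the background than for Sp1, and their enrichment was higher than that of all genes. Median fold enrichment over the members was 72.3 (25.3 to 88.6) in replicate 1, against 22.6 over all 6486 genes with a summit. In replicate 2 it was 39.9 (18.6 to 70.0), against 19.8. The intervals of the members lay above the all-gene median in replicate 1 and reached below it in replicate 2. At least 20-fold enrichment in both replicates was found at 22 of the 30 shared members (73.3%), against 50.9% of all 4843 shared genes. Members with a summit in only 1 replicate were weak, and each of the 7 in replicate 1 and the 2 in replicate 2 had a fold enrichment under 10, as had 91.5% and 94.7% of all genes of these kinds.

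**Figure D2:**
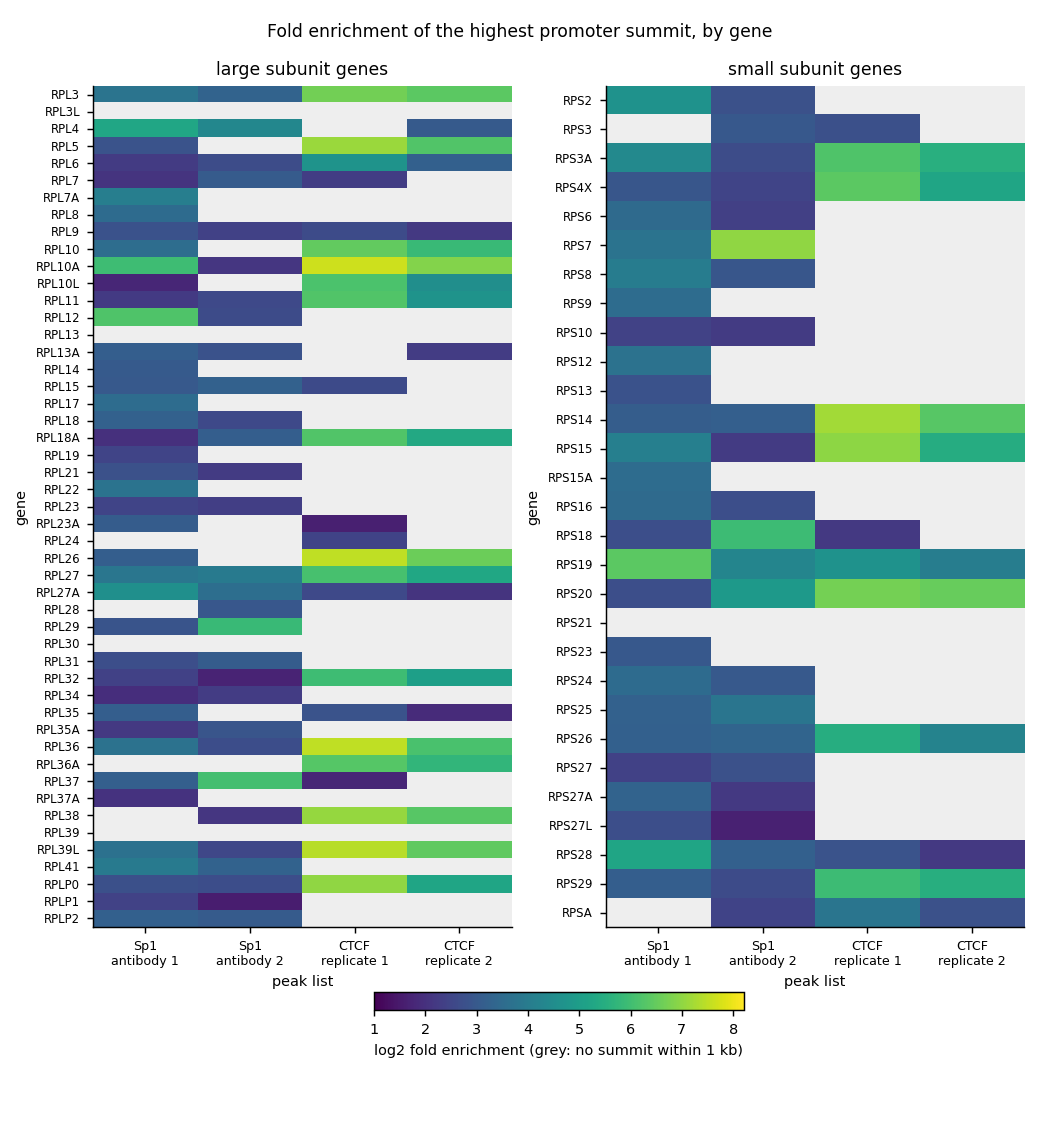
Log2 fold enrichment of the highest promoter summit of large and small subunit genes, by peak list, on a colour scale, with grey for no summit within 1 kb of a start. Sp1 columns are filled at most genes and mostly dark, whereas the CTCF columns are filled at fewer genes and often bright.

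Among small subunit genes, 28 of 32 had an antibody 1 summit and 24 an antibody 2 summit. RPS19, the gene most often mutated in Diamond-Blackfan anaemia, a failure of red cell production, had 83.6 and 19.3 with the antibodies and 25.3 and 16.6 in the CTCF replicates. RPS7, whose product can bind the p53 inhibitor MDM2, had the opposite order, with 13.3 with antibody 1 and 129 with antibody 2. RPS7 was thus the strongest member with antibody 2 and just above the 75th percentile of members, 13.2, with antibody 1. RPS19 was high with both, at summits 507 bp apart.

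RPS18, a protein of the small subunit head, had 6.60 with antibody 1 and 61.0 with antibody 2. RPS28 had 37.8 and 9.21. RPS20 had 6.63 and 29.6, with CTCF at 104 and 93.0. RPS2, with 25.3 and 6.92, had no CTCF summit. These genes show no common order of the antibodies.

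Of the 49 large subunit genes, 41 had an antibody 1 summit and 30 an antibody 2 summit. RPL12, which sits at the base of the stalk, had 74.1 with antibody 1 and 6.22 with antibody 2. RPL10A, the protein of the mobile L1 stalk, had 61.8 and 4.44, and CTCF values of 200 and 117. Of the Sp1 antibodies, only antibody 1 was high at these 2 genes.

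RPL4, which lines the exit tunnel of the nascent chain, was high with both antibodies, at 38.6 and 20.1. RPL27A had 24.0 and 12.1, but at highest summits 6247 bp apart, near different starts of the gene. Antibody 1 also had a lower summit near a start of RPL27A. RPL37 had 9.03 and 66.8, and RPL29 had 7.31 and 59.2. The last pair of genes resembled RPS7 in being high with antibody 2.

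The acidic stalk recruits the GTPases of translation. Its genes RPLP0, RPLP1 and RPLP2 had antibody 1 values of 6.76, 5.31 and 9.26 and antibody 2 values of 6.51, 2.98 and 8.41. All 3 were thus found with both antibodies at low to moderate enrichment. RPLP0 alone of them had CTCF summits, at 129 and 37.3. RPL5 and RPL11 form a particle with 5S rRNA that restrains MDM2 when ribosome assembly fails. RPL11 had 4.68 and 6.02, and RPL5 had 7.15 with antibody 1 and no antibody 2 summit. Both had strong CTCF summits, of 138 and 76.1 at RPL5 and 75.7 and 26.0 at RPL11.

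RPS27A, which encodes a ribosomal protein fused to ubiquitin, had 9.80 and 4.57 and no CTCF summit. The 4 paralogs behaved unlike each other. RPL3L, a paralog of striated muscle, had no summit in any list. RPL10L, expressed mainly in testis, had 3.40 with antibody 1, the lowest value of any member, and CTCF values of 72.3 and 23.6. RPL39L had 12.9 and 5.78 with CTCF at 173 and 86.2, and RPS27L, a target of p53, had 6.57 and 3.16 with no CTCF summit.

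The 8 members with no Sp1 summit included RPL13, RPL24, RPL30, RPL36A, RPL39, RPL3L and RPS21. RPL36A had CTCF summits of 78.1 and 53.2, and RPL24 had one of 5.50 in replicate 1 only. The other 6 had none. Antibody 1 alone was found at 19 members, of which RPL7A (16.9), RPL22 (13.4), RPS12 (13.1), RPL10 (11.9), RPS9 (11.7) and RPS15A (11.7) were the highest. Antibody 2 alone was found at RPL28 (7.75), RPL38 (4.36), RPS3 (7.90) and RPSA (5.50). None of these values with antibody 2 alone reached 10. Of all 19970 genes, antibody 1 was found at 7481, antibody 2 at 4825 and both at 4233. Antibody 1 alone was thus the more frequent over all genes too.

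Diamond-Blackfan anaemia genes are the ribosomal protein genes whose loss of 1 copy causes that disease, and 19 were listed. Antibody 1 had a summit at all 19 of them (Wilson interval 83.2 to 100%), beside 85.2% of all members. Antibody 2 had 14 (73.7%), and both CTCF replicates had 10 (52.6%, 31.7 to 72.7%), beside 37.0% of all members. Median fold enrichment with antibody 1 was 8.85, close to the 8.89 of all members. Of the 28 members that host small nucleolar RNA genes in their introns, 23 had an antibody 1 summit and 9 both CTCF replicates. Of the 53 other members, 46 and 21 did.

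Genes near the rule but outside it included RPL22L1, RPL26L1, RPL7L1, RPL36AL, FAU and RACK1. FAU, which encodes a ubiquitin-like fusion of RPS30, had 15.5 and 7.91, and RACK1 had 4.57 and 7.08. RPL36AL had 6.81 and 5.07 with weak CTCF summits of 5.51 and 4.12. RPL26L1 had 6.72 and 4.11 with CTCF at 115 and 39.6. RPL22L1 had only a CTCF replicate 1 summit of 4.83, and RPL7L1 had none.

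The antibodies were next compared at the 50 members with both. Antibody 2 had the lower fold enrichment at 32 of them, with a median log2 ratio of antibody 2 to antibody 1 of −0.47 (−0.77 to 0.07), against −0.66 over the 4233 genes with both. Spearman's rho between the antibodies across these 50 members was 0.22, and 0.32 across all 4233 genes, as descriptions across genes of 1 library each. At 5 members, RPL10A, RPL12, RPS19 and RPS28 among them, antibody 1 was more than 4-fold higher. At 5 others, RPS7, RPS18, RPL29, RPL37 and RPS20, antibody 2 was more than 4-fold higher. Over all 4233 genes antibody 1 was more than 4-fold higher at 163 and antibody 2 at 301. The median gap between the highest summits was 62.5 bp, close to the 61 bp of all genes. Their peaks overlapped at 49 of 50 members, RPL27A being the exception, and at 95.4% of all genes with both. RPL27A had 2 antibody 1 summits within 1 kb of a start. When only overlapping peaks were compared, all 50 members remained, with a median log2 ratio of −0.43.

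**Figure D3:**
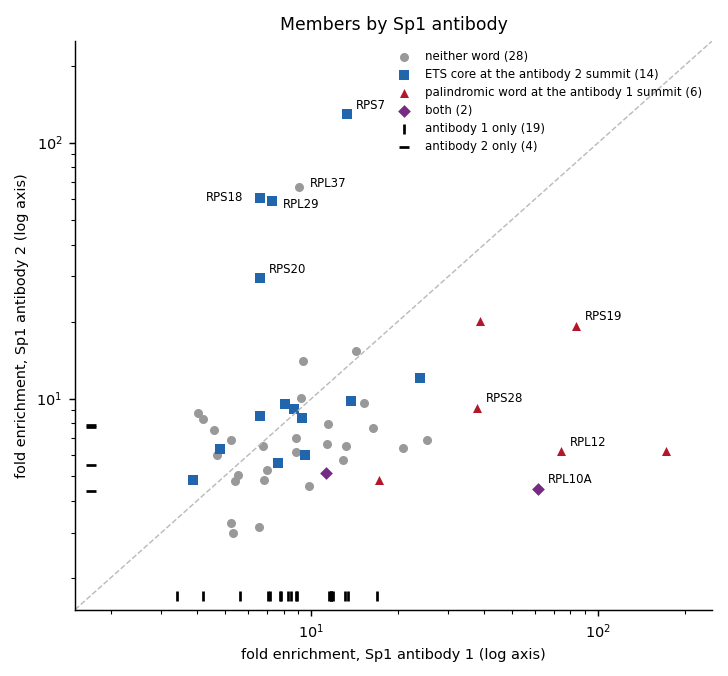
Fold enrichment with Sp1 antibody 1 (x, log axis) and antibody 2 (y, log axis) at the 50 members with both, with symbols for the words within 50 bp of the summit and ticks along the axes for the 19 and 4 members with 1 antibody only. Named members differ by more than 4-fold, the TCGCGAGA genes lying below the dashed line of equal values and 4 of the 5 genes named above it carrying CCGGAA.

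The words at the summits differed along the same axis. Both words had been picked earlier from the strongest peaks of these lists, so the counts that follow are a description of the members and no independent support. TCGCGAGA, searched in both orientations up to 50 bp from the summit, was found at 12 of 69 antibody 1 summits (17.4%, 10.2 to 28.0%), against 3.68% over all genes. It was found at each of the 6 highest members, which include RPS19, RPL12, RPL10A, RPL4 and RPS28, and at 4 of the 57 members ranked after the 12 highest. Antibody 1 members with the word had a median fold enrichment of 27.5 and those without it 8.27. Across all genes these medians were 22.1 and 8.63.

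CCGGAA was found at 17 of 54 antibody 2 summits (31.5%, 20.7 to 44.7%), against 24.0% over all genes. Among the 5 highest members it was present at RPS7, RPS18, RPL29 and RPS20 and absent at RPL37. Antibody 2 members with it had a median of 8.58 and those without 6.65, close to the 8.41 and 6.80 of all genes. At the 16 members with both antibodies and this core, antibody 2 was higher at 9, with a median log2 ratio of 0.15. At the 34 without, antibody 2 was higher at 9, with a median of −0.59. Over all genes it was higher at 47.4% with the core and 17.3% without, with medians of −0.07 and −0.76. All 8 members with TCGCGAGA at the antibody 1 summit and both antibodies had the higher value with antibody 1, as had 95.6% of the 136 such genes overall. The ETS contrast among members was thus the smaller one.

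The GC box GGGCGG, the site of the Sp1 zinc fingers, was less frequent at the members' summits than at those of all genes. It was found at 26 of 69 antibody 1 summits (37.7%, 27.2 to 49.5%), against 56.7% (55.5 to 57.8%), and at 14 of 54 antibody 2 summits (25.9%, 16.1 to 38.9%), against 44.4%. The intervals of members and all genes did not overlap with either antibody. Mitochondrial ribosomal protein genes had it at 50.0% (37.7 to 62.3%) with antibody 1 and 40.0% (27.0 to 54.5%) with antibody 2. Other terminal oligopyrimidine genes had 52.6% (31.7 to 72.7%) and 23.1% (8.18 to 50.3%). The intervals of both groups overlap those of the members. Base composition also differed between members and all genes. Median GC content of the windows was 60.4% for members and 67.3% for all genes with antibody 1, and 59.4% and 64.4% with antibody 2. Its part in the difference was not tested. The GC box, the ETS core or TCGCGAGA stood at 41 of the 69 antibody 1 summits (59.4%, 47.6 to 70.2%), against 65.6% of all genes, and at 28 of 54 with antibody 2 (51.9%), against 60.6%.

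In the promoters as a whole, from 250 bases before to 50 from the canonical start, the GC box was as frequent as elsewhere. There 50 of 81 members held it (61.7%), and 61.3% of all promoters of this length did. These shares cover all 81 members and all 19970 genes, with or without an Sp1 summit. They cannot be set directly against the shares at summits, which cover only genes with one. CCGGAA was held by 45 (55.6%, against 22.8%) and TCGCGAGA by 15 (18.5%, against 1.72%). The YY1 core AAGATGGC was held by 10 (12.3%, against 4.06%). Mitochondrial ribosomal protein genes also had frequent CCGGAA (60.3%) and more often the YY1 core (28.2%), but TCGCGAGA in 2.56%. Other terminal oligopyrimidine genes had the YY1 core in 25.0% and TCGCGAGA in 5.00%. All 15 members with TCGCGAGA in the promoter had an antibody 1 summit (79.6 to 100%), as had 54 of the 66 without it (70.9 to 89.3%). These intervals overlap, and no such share of all genes is given here. The word was picked from the strongest peaks of these lists, so this count is no independent support.

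The TCT initiator was frequent at the members, as at other genes with a terminal oligopyrimidine tract. It was within 20 bp of the canonical start in 59 of 81 members (72.8%, 62.3 to 81.3%), against 7.96% of all genes and 8.97% of mitochondrial ribosomal protein genes. Of the 20 other terminal oligopyrimidine genes 14 had it (70.0%), as had 4 of the 7 ribosomal protein genes outside the rule. Within 5 bp it was in 58.0% of members, 70.0% of the other terminal oligopyrimidine genes and 3.75% of all genes. RPL13A, RPLP2, RPS6, the target of the S6 kinases, and RPS27A show it at or close to the annotated start in the fourth set of sequences above. Each of the 4 paralogs lacked it. Members with the initiator had antibody 1 summits in 49 of 59 and members without it in 20 of 22. With both antibodies and both CTCF replicates the counts were 11 of 59 (18.6%, 10.7 to 30.4%) and 10 of 22 (45.5%, 26.9 to 65.3%), and these intervals overlap.

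Sp1 summits lay close to the start. Negative distances are upstream on the strand of the gene. With antibody 1 the median absolute distance was 54.0 bp (35 to 72) over members and 81.0 bp (77 to 84) over all genes, and 53 of 69 members (76.8%) were within 100 bp, against 57.4%. With antibody 2 it was 64.5 bp (22 to 91) against 84.0 bp (80 to 88). The larger number of annotated starts at members shortens the distance to the nearest one. From the canonical start alone the members' medians were 72 bp with antibody 1 and 67 bp with antibody 2. No such medians are given here for all genes. Closeness was not particular to the members. Mitochondrial ribosomal protein genes had medians of 43 bp (30 to 53) with antibody 1 and 47 bp (40 to 72) with antibody 2. Other terminal oligopyrimidine genes had 60 and 92 bp. Summits lay upstream at 52 of 69 members with antibody 1 (75.4%, against 80.2% of all genes) and 39 of 54 with antibody 2 (72.2%, against 75.2%). RPS19 was an exception with antibody 2, whose highest summit lay 545 bp upstream, whereas that of antibody 1 lay 38 bp upstream.

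**Figure D4:**
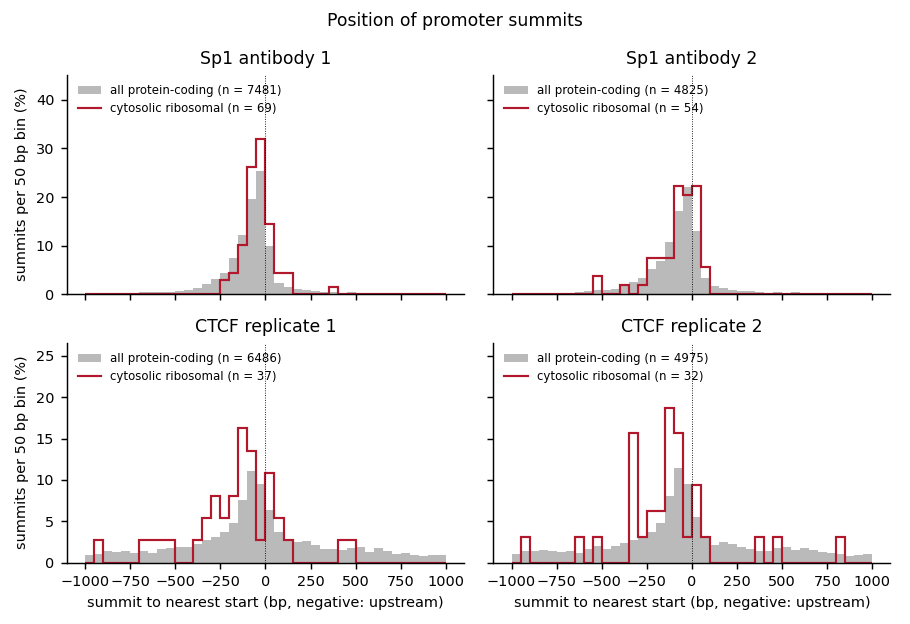
Distance from the summit to the nearest annotated start (bp, negative upstream) in 50 bp bins, as percent of genes with a summit, for members (red line) and all protein-coding genes (grey). Sp1 summits of members crowd within 100 bp of the start, and CTCF summits of members lie mostly upstream of it.

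CTCF summits lay farther out and mostly upstream. The median absolute distance was 133 bp (101 to 292) in replicate 1 and 146 bp (96 to 305) in replicate 2, against 216 and 226 bp over all genes. From the canonical start alone the members' medians were 238 bp over 33 members and 201 bp over 28. These have no all-gene value beside them, so the part of the number of starts in the difference was not tested. Upstream summits made up 28 of 37 (75.7%) and 25 of 32 (78.1%), against 61.6% and 63.5%. The upstream shares were similar at mitochondrial ribosomal protein genes, 74.1% in replicate 1 and 78.3% in replicate 2. They were 75% in each replicate at other terminal oligopyrimidine genes, with 8 summits each. At the 32 members with antibody 1 and CTCF replicate 1, the CTCF summit lay upstream of the Sp1 summit in 25 (78.1%), whereas it did so in 44.5% of the 3170 such genes. With CTCF replicate 2 it did so in 21 of 29 (72.4%), against 45.5%. With antibody 2 the counts were 23 of 28 and 19 of 25, against 44.0% and 44.7% of all genes. The median distance between antibody 1 and CTCF replicate 1 summits was 243 bp over members and 474 bp over all genes. These lists share neither cells nor antibody, and the same genes enter all 4 counts.

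High CTCF values in both replicates were found at RPL10A, with 200 and 117, RPL26 at 182 and 96.4, RPL39L at 173 and 86.2 and RPL36 at 183 and 70.0. RPS14, whose loss in the 5q- syndrome impairs red cell formation, had 147 and 80.6. RPL38, known for its part in translating Hox mRNAs, had 133 and 81.0, and RPL5 had 138 and 76.1. All 7 of these genes were high in both replicates. Replicate 2 was lower than replicate 1 at all 30 shared members, with a median log2 ratio of −0.88 (−1.01 to −0.70) against −0.95 over all 4843 shared genes. The median gap between their summits was 8.5 bp, against 8 bp over all genes. Spearman's rho was 0.90 across the 30 members and 0.95 across all 4843 genes. Summits in replicate 1 alone included RPS3 (6.73), RPL15 (6.08) and RPL24 (5.50), and RPL4 (8.18) had one in replicate 2 alone.

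**Figure D5:**
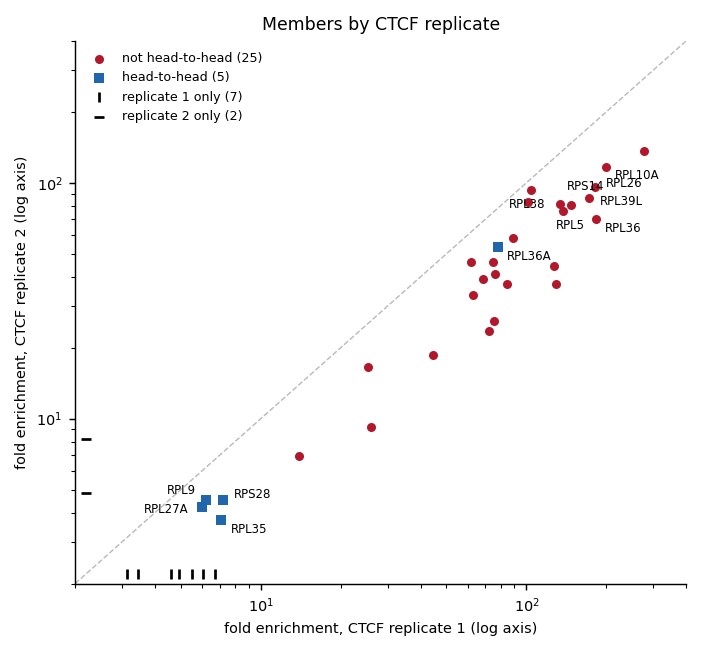
Fold enrichment in CTCF replicate 1 (x, log axis) and replicate 2 (y, log axis) at the 30 members with both, by whether another protein-coding gene starts head-to-head, with ticks for the 7 and 2 members in 1 replicate only. All 30 points lie below the dashed line of equal values, and 4 of the 5 head-to-head members are at the bottom left. Of these, RPL27A has its CTCF summits far from its head-to-head start.

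Head-to-head members with a CTCF summit were low in its fold enrichment. In 17 members another protein-coding gene starts on the opposite strand within 1 kb upstream. Replicate 1 had a summit at 8 of them (47.1%), and at 45.3% of the members without such a promoter. The median of these 8 was 6.16, with RPL36A at 78.1 and the other 7 under 10. Among the 29 other members with a summit the median was 75.8, and 4 were under 10. In replicate 2 the medians were 4.54 over 6 and 45.1 over 26, and the shares with a summit 35.3% and 40.6%. RPL27A counts among the low head-to-head members in both replicates. Its CTCF summits lay 6041 and 6033 bp from the canonical start that defines the pair, so they are not at that promoter. Over all genes head-to-head promoters had medians of 16.0 and 15.8, and the rest 23.9 and 20.4. Antibody 1 showed no such split, with medians of 9.44 and 8.83. A summit at a shared promoter can belong to either gene. Of the 69 antibody 1 summits 20 also lay within 1 kb of another protein-coding gene's start, as did 9 of 37 in CTCF replicate 1.

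The CTCF core stood at few of these summits, at shares near those of all genes. An exact match to the core was found at 4 of 37 replicate 1 summits (10.8%), against 8.70% over all genes, and 1 mismatch gave 10 of 37 (27.0%, 15.4 to 43.0%) against 34.0%. In replicate 2 the counts were 4 of 32 (12.5%, against 10.8%) and 10 of 32 (31.3%, against 39.5%). The exact matches were at RPL3, RPL5, RPLP0 and RPS4X. With 1 mismatch allowed, the core pointed in the direction of the gene at 8 of 10 members in replicate 1 (49.0 to 94.3%) and 9 of 10 in replicate 2 (59.6 to 98.2%). RPL39L was an exception in both. Over all genes the shares were 52.7% and 53.1%, and 59.0% and 59.2% where the core lay upstream of the start. The members' lower bounds lie at or below 59.6%, close to the upstream shares.

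CTCF was also compared between members with and without Sp1. Both CTCF replicates had a summit at 21 of the 50 members with both Sp1 antibodies (42.0%, 29.4 to 55.8%), against 31.6% of the 4233 such genes. Of the 8 members with no Sp1 summit, 1 had both (12.5%, 2.24 to 47.1%), against 19.8% of such genes. The members' intervals overlap. GGGCGG stood at 16 of 37 CTCF replicate 1 summits (43.2%, 28.7 to 59.1%), against 24.3% of all genes, and at 12 of 32 in replicate 2 (37.5%, 22.9 to 54.7%), against 22.6%. Within 100 bp the shares were 48.6% (33.4 to 64.1%) against 40.0% and 46.9% (30.9 to 63.6%) against 37.4%, so the members' intervals then held the share of all genes.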

How the data were processed

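Per the submitters' processing notes, the authors trimmed reads (cutadapt 2.6), aligned them to hg38 (Bowtie2 2.4.5), removed duplicates and called peaks per library with MACS2 2.2.7.1. The study's methods name another Bowtie2 version and give the caller as MACS3. Each line of the 5 deposited lists gives an interval, the fold enrichment at the summit (a linear ratio made by the authors), the authors' −log10 p and −log10 q, a deposited score that was not used, and the summit offset. Those methods describe a call at a liberal p-value with control replicates merged, made for a test of reproducibility. All 5 lists end at a −log10 q of at least 1.30, so whether they come from that call, and which control each had, was not settled here. The 3 input libraries have no list among the files used here.

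Genes, starts and exons came from GENCODE release 44. All intervals lay within hg38 contigs, with 0 exceptions. Distances were taken from the summit to the nearest start. Head-to-head and small nucleolar RNA host genes were found from the annotation. Words were searched in both orientations up to 50 bp from the summit, the CTCF core by its consensus of 12 bases. Python 3.11.15, pandas 2.3.3, scipy 1.17.1 and pysam 0.24.0 were used, and the counting was tested on planted peaks and words.

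The members, gene lists, words and alternatives were chosen with earlier results of these data known. Named genes were the 10 members highest over both Sp1 antibodies, those with no Sp1 summit, the 6 highest with 1 antibody only, the 5 largest ratios between the antibodies each way, the 8 highest over both CTCF replicates, the 4 highest in 1 replicate only, and fixed members of the stalk, 5S particle, paralogs, ubiquitin fusion and outside the rule. Other genes were named after their values were seen. A few genes that this rule would name are not reported here by name, although they enter every count and median.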

Additional observations from a re-analysis of the deposited data

How the results depend on the processing

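Limits come first. The lists give no read counts, so depth, antibody quality and threshold cannot be told apart, and each Sp1 antibody has 1 library. No expression or accessibility data were used here. No paired analysis was possible because replicate numbers tie the CTCF lists to inputs alone, and no list of an input was used.

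Of 88 alternative values, 76 were classed as near the main value, 12 as moved and 0 as reversed. The class of 76 is broad. It holds the members' median CTCF distance with canonical starts only, which went from 133 to 238 bp in replicate 1. In replicate 2 it went from 146 to 201 bp. Summits within 5 kb of a start moved the CTCF shares to 64.2% in replicate 1, 58.0% in replicate 2 and 56.8% in both, and the share with all 4 lists to 37.0%. All genes then stood at 51.7%, 44.0%, 43.4% and 12.3%. The longer GC box GGGGCGGGG gave 10.1% with antibody 1 and 5.56% with antibody 2, against 20.1% and 13.8% of all genes. Windows of 100 bp raised the GC box with antibody 2 to 46.3% and the ETS core to 37.7% and 48.1%. Over all genes these shares were 64.4%, 25.6% and 35.3%. The GC box with antibody 1 was then at 49.3%, against 72.8%. A mismatch in the CTCF core gave 27.0% and 31.3%, and the TCT initiator within 5 bp 58.0%. Wider windows and mismatches can only add matches. Leaving out either CTCF replicate gave 39.5% to 45.7% for CTCF and 28.4% to 30.9% for all lists. Spelling the ETS core CGGAAG, an alternative chosen after seeing the data, gave 23.2% and 37.0%, against 16.8% and 24.9% of all genes.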
